A study of Homo sapiens with 9 samples.

Results

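The gene expression of A375 cells under vehicle was described from the 3 DMSO libraries among the 9 libraries sequenced. The libraries were chosen by their treatment label alone, and each gave an expected count for the same 26475 gene symbols. The established human line A375 comes from a melanoma and carries mutant BRAF, and it was grown in DMEM with 10% fetal bovine serum. The cells were treated for 24 h with DMSO, with 5 µM TP-472 or with 10 µM TP-472, an inhibitor of the bromodomain proteins BRD7 and BRD9, with 3 libraries in each group. The series calls the replicates biological and does not say whether they were separate cultures, so SDs and p-values measure the spread between these libraries, which may be technical. A single cell line was profiled, and a difference in the number of cells of a state cannot be told apart from a difference in RNA per cell.

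Melanocytes arise from the neural crest, and the transcription factors SOX10 and MITF establish and maintain their identity. MITF activates the genes of pigment synthesis, among them TYR, TYRP1 and DCT, through the M-box and related E-box sequences in their promoters. Melanoma cells can move between a differentiated state with pigment genes on and dedifferentiated states in which MITF is low and AXL, NGFR, WNT5A and genes of the extracellular matrix are high. The p53 pathway answers DNA damage and other stress with genes of cell cycle arrest, DNA repair and cell death, and MDM2 is both one of its targets and its main brake.

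The promoters of 4 pigment-cell genes are shown because their motifs for MITF can be set beside their levels in DMSO. TYR, TYRP1 and DCT encode the enzymes of melanin synthesis and GPNMB a glycoprotein of the melanosome. Each sequence is the 250 bases before the gene's start in RefSeq on GRCh38.p14, read 5′ to 3′ along the gene, and capitals mark TCATGTG, the core of the M-box, or its reverse complement CACATGA. The sequences lie at chr11:89177625-89177874 on the plus strand for TYR, chr9:12693135-12693384 on the plus strand for TYRP1, chr7:23246525-23246774 on the plus strand for GPNMB and chr13:94549407-94549656 on the minus strand for DCT.
TYR: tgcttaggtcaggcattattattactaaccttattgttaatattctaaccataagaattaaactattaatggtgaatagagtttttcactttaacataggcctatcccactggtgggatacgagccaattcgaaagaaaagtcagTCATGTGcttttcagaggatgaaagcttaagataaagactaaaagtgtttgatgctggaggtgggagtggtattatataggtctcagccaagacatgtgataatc
TYRP1: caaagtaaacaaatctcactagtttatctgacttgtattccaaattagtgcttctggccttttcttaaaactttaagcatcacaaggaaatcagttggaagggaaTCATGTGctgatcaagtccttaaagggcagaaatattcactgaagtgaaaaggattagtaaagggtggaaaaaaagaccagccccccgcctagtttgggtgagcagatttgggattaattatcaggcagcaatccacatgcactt
GPNMB: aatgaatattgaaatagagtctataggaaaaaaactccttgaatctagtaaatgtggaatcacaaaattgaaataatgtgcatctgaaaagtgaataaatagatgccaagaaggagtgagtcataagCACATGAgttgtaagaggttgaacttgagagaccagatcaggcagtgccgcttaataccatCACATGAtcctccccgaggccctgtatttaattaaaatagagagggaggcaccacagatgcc
DCT: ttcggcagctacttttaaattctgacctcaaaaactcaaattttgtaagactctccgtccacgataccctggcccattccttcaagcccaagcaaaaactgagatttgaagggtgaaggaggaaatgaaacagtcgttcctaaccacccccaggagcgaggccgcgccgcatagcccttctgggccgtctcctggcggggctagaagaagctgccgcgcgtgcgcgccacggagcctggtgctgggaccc

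The motif began 105 bases before the start in TYR, 145 bases before it in TYRP1, and 123 and 62 bases before it in GPNMB. Neither it nor CACGTG occurred in the window printed for DCT. Each gene was searched at a single RefSeq start, so this does not show that DCT lacks the motif at another start. Over 250 bases before and 50 bases after the start, on either strand, TCATGTG was found in 7 of the 24 melanocyte genes with a promoter in the table (29.2%) and in 2.40% of all 17330 promoters. The other melanocyte genes with the motif were GPR143, SLC24A5, BCL2A1 and TSPAN10. The level per length of the 7 genes ranged from no count in DMSO (TYR) to 53.7 ± 0.498 TPM (GPNMB), so the letters were found beside silent and expressed genes alike.

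The DMSO libraries held 50439493, 47997253 and 42483091 expected counts, and the TP-472 libraries 47604653 to 51298130. Genes of ribosomal RNA took 8.79% to 10.9% of them, and the 10 highest other symbols 4.73% to 4.81%. A count of 0 in a library allowed a level of up to 0.0595 to 0.0706 CPM, the upper limit of 3 counts, and this limit covers counting error only. Levels within a gene are given in CPM, counts scaled to the library size with TMM factors. Levels between genes are given per length as TPM, computed here from CPM and the summed exon length in GENCODE release 29. The source that describes the libraries names oligo-dT selection of mRNA and the series' design names depletion of ribosomal RNA, and which was used could not be settled. The 10 µM replicate 1 library stood apart from the other 10 µM libraries, and counts that change without it are given beside the comparisons with TP-472.

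In DMSO, 13256 of the 26475 symbols (50.1%) were expressed, that is, reached 1 CPM in each of the 3 libraries. Another 6483 symbols (24.5%) had no count in any of them. Among the 19003 protein-coding symbols 64.9% were expressed, against 475 of 2944 long noncoding RNAs (16.1%), 0 of 1853 microRNAs and 0 of 391 small nucleolar RNAs. The symbols without a count included 1765 microRNAs and 277 small nucleolar RNAs. Neither preparation named above selects small RNAs, so these values cannot be read as silence in the cells. The 71 symbols at 1000 CPM or more, 68 of them protein-coding, took 22.9% of the counts, and the 2007 symbols from 100 to 1000 CPM took 44.8%. These shares include the genes of ribosomal RNA, which took 8.79% to 10.9% of the counts of the DMSO libraries. The 3069 symbols between 0.1 and 1 CPM together took 0.120%.

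The highest level per length was that of GAPDH, the glycolytic enzyme, at 7874 ± 195 TPM (SD, n = 3). The ribosomal proteins RPS2, RPL41, RPS27, RPL13A and RPL7A followed with the elongation factor EEF1A1, the intermediate filament vimentin (VIM), the glycolytic enzyme ENO1 and the ferritin chain FTH1, down to 5025 ± 64.6 TPM for FTH1. VIM was the only one of these 10 symbols from the lineage lists, and its level was 3697, 3661 and 3799.6 CPM in the 3 libraries. RPL41, a very small ribosomal protein, spread most among the 10, with 1624, 1480.1 and 1352 CPM, and EEF1A1 least, with a coefficient of variation (CV) of 0.962%.

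A375 cells in DMSO expressed the melanocyte fate factors, with the exception of KIT, but none of the pigment enzymes. Of 33 melanocyte genes, 21 were expressed (63.6%, against 64.9% of protein-coding symbols) and 4 had no count. The median level over the 33 was 6.88 TPM, near the 8.23 TPM over all protein-coding symbols. Over the expressed symbols alone the median was 24.1 TPM. SOX10, the neural crest factor of the melanocyte lineage, stood at 425, 404 and 419.6 CPM in DMSO replicates 1, 2 and 3, or 449.7 ± 10.2 TPM. MITF was measured at 29.9, 32.6 and 33.3 CPM, or 16.7 ± 1.12 TPM, so its level per length was far below that of SOX10 in each library. PAX3, which acts with SOX10 upstream of MITF, stood at 7.98 ± 1.09 TPM, TFAP2A at 11.2 ± 0.315 TPM and LEF1, a mediator of Wnt signaling, at 15.3 ± 1.46 TPM. ERBB3, the neuregulin receptor, had the second level of the list at 92.6 ± 2.02 TPM, and EDNRB, the endothelin receptor of melanoblasts, stood at 8.11 ± 0.297 TPM. KIT, the receptor that melanoblasts need to survive, had no count in any library.

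TYR and DCT had no count in any DMSO library. The limit of 3 counts behind a 0 holds for a single library and is an upper limit of counting error, not a maximum. TYRP1 was found at 0.282, 0.453 and 0.260 CPM, under 1 CPM in each library, so 0 of the 3 pigment enzymes were expressed. Of 10 genes of melanosome structure and transport, 4 were expressed, with RAB38 at 36.8 ± 2.86 TPM, MLPH, the myosin adaptor of melanosomes, at 18.1 ± 0.648 TPM, RAB27A at 6.88 ± 0.137 TPM and PMEL, the fibril protein, at 1.67 ± 0.116 TPM. The melanoma antigen MLANA stood at 0.161, 0.144 and 0.213 CPM, under 1 CPM in every library. GPR143, OCA2, SLC45A2, SLC24A5 and TRPM1 also lay under 1 CPM, with means of 0.273, 0.309, 0.285, 0.149 and 0.0147 CPM. Thus the expressed melanosome genes were mainly those of transport, and the melanosome channels and exchangers lay below the limit.

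Among the other lineage markers, GPNMB was the highest at 53.7 ± 0.498 TPM, and its libraries gave 67.7, 65.8 and 66.6 CPM. CDH19, a cadherin, stood at 17.97 ± 0.813 TPM, S100B at 15.6 ± 1.27 TPM, MC1R, the receptor for melanocortin, at 13.3 ± 0.615 TPM, S100A1 at 9.90 ± 0.430 TPM and TSPAN10 at 7.76 ± 0.749 TPM. BCL2A1, a survival gene that MITF controls, was at 4.84 ± 0.506 TPM, ST3GAL6 at 3.65 ± 0.586 TPM and CDH3 at 1.32 ± 0.118 TPM. CAPN3 lay under 1 CPM, at 0.546 ± 0.142 CPM. E-cadherin (CDH1), the adhesion molecule that ties melanocytes to keratinocytes, had no count, whereas N-cadherin (CDH2) stood at 117 ± 1.49 TPM.

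Genes of the neural crest and of dedifferentiated melanoma were broadly expressed. Of 43 members, 37 passed 1 CPM in every library, 0 had no count, and the median was 24.7 TPM. VIM led the list. CD44, the hyaluronan receptor, stood at 609 ± 18.1 TPM, TGFBI, a matrix protein that TGF-beta induces, at 607 ± 5.94 TPM, the chemokine CXCL8 at 602 ± 10.0 TPM and FOSL1, a subunit of AP-1, at 595 ± 21.5 TPM. AXL, a receptor tyrosine kinase and marker of the dedifferentiated state, stood at 515, 524 and 529 CPM, or 341 ± 8.64 TPM, and its 3 libraries differed by little. Of the neural crest members, the adhesion molecule L1CAM stood at 235 ± 7.30 TPM, nestin (NES) at 189 ± 7.12 TPM, the nerve growth factor receptor NGFR at 74.3 ± 1.14 TPM and MSX1 at 49.1 ± 3.44 TPM. The members short of 1 CPM in at least 1 library were LOX, ROR2, SNAI2, RXRG, GFRA2 and GFRA3. SNAI2, which encodes the neural crest factor SLUG, was at 0.483, 0.411 and 0.402 CPM, while its relative SNAI1 was at 12.4, 12.9 and 13.7 CPM.

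**Figure D1:**
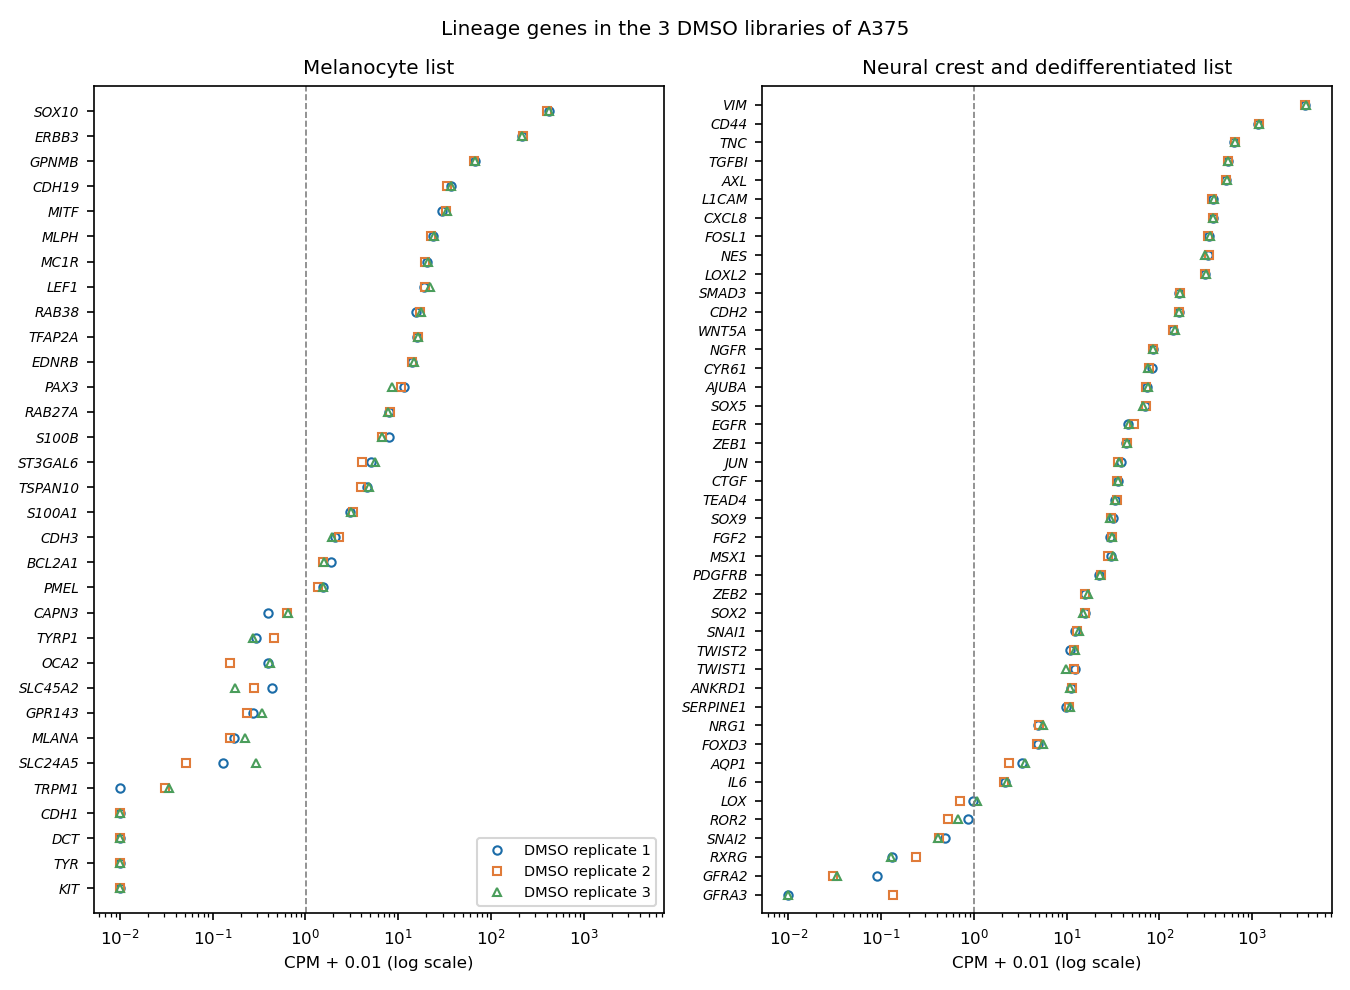
Level of the members shown of the melanocyte list (left) and of the neural crest and dedifferentiated list (right) in the 3 DMSO libraries, in CPM + 0.01 on a log scale, with 1 marker per library and a dashed line at 1 CPM. The 4 melanocyte genes without a count sit at the left edge, and SOX10 tops the melanocyte list at 404 to 425 CPM.

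Of 58 receptor tyrosine kinases, 35 were expressed, with a median of 2.65 TPM. EPHA2, a receptor for ephrin-A ligands, stood highest at 550.0 ± 7.21 TPM, with 688, 673 and 686 CPM in the 3 libraries. AXL followed, then MET, the receptor for hepatocyte growth factor, at 137 ± 5.17 TPM, and RYK, a receptor for Wnt ligands, at 102 ± 4.54 TPM. Within the EGFR family ERBB3 was above ERBB2 at 57.9 ± 2.00 TPM and EGFR at 13.6 ± 1.22 TPM, and ERBB4 was not expressed, at 0.0384 ± 0.0497 CPM. IGF1R stood at 41.8 ± 1.36 TPM and INSR at 8.39 ± 0.162 TPM. Of the ephrin receptors 8 of 14 were expressed, and EPHB4, the next after EPHA2, stood at 65.2 ± 2.08 TPM. The PDGF receptor PDGFRB was at 12.7 ± 0.435 TPM, the discoidin domain receptor DDR1, which binds collagen, at 88.8 ± 3.55 TPM, and FGFR1 at 41.0 ± 0.876 TPM.

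Among 32 cytokine and immune receptors, 21 were expressed. The decoy receptor for interleukin 13, IL13RA2, was the highest receptor of this list at 772 ± 9.30 TPM, with 371, 361 and 354 CPM, and its level per length lay above that of each receptor tyrosine kinase. The interferon gamma receptor chain IFNGR2 stood at 96.8 ± 3.66 TPM, and the shared chain of the interleukin 6 family, IL6ST, at 67.7 ± 3.38 TPM. Only 3 of 10 Toll-like receptors were expressed in all libraries, and TLR4, the receptor for lipopolysaccharide, led them at 129.7, 132 and 131 CPM, or 32.2 ± 0.674 TPM. Of 14 TGF-beta superfamily receptors 10 were expressed, with endoglin (ENG) at 116 ± 5.13 TPM and TGFBR2 at 89.6 ± 5.47 TPM. Of 10 TNF receptor family members 8 were expressed, led by TNFRSF21 at 314 ± 3.54 TPM, TNFRSF1A at 203 ± 1.57 TPM and TNFRSF10B, a receptor for TRAIL, at 106 ± 2.00 TPM. The TRAIL decoy receptor TNFRSF10D was not expressed, at 0.0359 ± 0.0318 CPM. Of 48 nuclear receptors 29 were expressed, and NR2F6 at 181 ± 7.26 TPM, NR1H2 at 138 ± 4.03 TPM, PPARG at 110.2 ± 2.32 TPM and ESRRA at 97.6 ± 4.73 TPM were the highest per length.

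Several basement membrane genes were high among the matrix genes, and the main collagens of fibroblasts were low. Of the 6 genes of basement membrane collagen IV, 3 were expressed, and the median of the 6 was 4.96 TPM. Of 44 collagen genes 23 were expressed, with a median of 1.38 TPM. COL9A3, a chain of the cartilage collagen IX, was the highest collagen at 754 ± 7.41 TPM, with 601, 581 and 587 CPM. The collagen IV chains COL4A2 at 233 ± 3.91 TPM and COL4A1 at 208 ± 6.04 TPM followed. COL6A1 at 193 ± 2.93 TPM and COL5A2 at 159 ± 3.63 TPM came next. COL4A1 and COL4A2 lie head to head on chromosome 13, and their libraries gave 482, 503 and 487 CPM and 939, 946 and 949 CPM. Type I collagen is built from chains of COL1A1 and COL1A2. COL1A1 stood at 10.3, 10.1 and 10.3 CPM, while COL1A2 stood at 0.0805, 0.0411 and 0.0709 CPM, and COL3A1 at 0.461 ± 0.0958 CPM. The chains of fibrillar collagen I were thus unequally expressed in each library.

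Of 12 laminin chains, 10 were expressed and the median was 35.8 TPM. Of these, LAMB1 stood at 583 ± 13.0 TPM, LAMC1 at 405 ± 7.17 TPM, LAMA5 at 229.5 ± 6.70 TPM and LAMB2 at 125 ± 3.65 TPM, chains that combine into the basement membrane laminins. LAMB4 was at 0.0508 ± 0.0175 CPM and LAMC3 at 0.434 ± 0.0201 CPM. Of 26 integrins 20 were expressed. The subunits of the laminin-binding integrins led the list, with ITGB4 at 555 ± 9.71 TPM, ITGA3 at 496 ± 11.2 TPM, ITGB1 at 437 ± 4.02 TPM and ITGA6 at 312 ± 10.2 TPM. ITGB4 varied little, at 1067, 1077 and 1079.5 CPM, and ITGAV, the partner in receptors for vitronectin, was at 65.0 ± 2.04 TPM.

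SPARC, a secreted protein that binds collagen, was the highest of 56 matrix glycoproteins and proteoglycans at 2241 ± 30.1 TPM, of which 41 were expressed. Its libraries gave 2644, 2549 and 2600.3 CPM. TGFBI followed, then the heparan sulfate proteoglycan SDC4 at 361 ± 13.2 TPM and LTBP3, which binds latent TGF-beta, at 331 ± 9.51 TPM. Among the proteoglycans CSPG4, the melanoma-associated chondroitin sulfate proteoglycan, stood at 271 ± 4.73 TPM and AGRN at 255 ± 1.66 TPM. Decorin (DCN), a fibroblast proteoglycan, was at 0.664, 0.658 and 0.662 CPM. Of 59 enzymes and inhibitors of the matrix, 37 were expressed, with the metalloproteinase inhibitor TIMP3 at 827 ± 6.0 TPM, the collagen prolyl hydroxylase subunit P4HB at 671 ± 5.95 TPM, the crosslinking enzyme TGM2 at 569 ± 14.0 TPM and the cathepsin CTSZ at 553 ± 6.25 TPM highest. CTSB stood at 247 ± 7.61 TPM and CTSS at 11.2 ± 0.403 TPM. Of 23 matrix metallopeptidases 10 were expressed, MMP2 at 503 ± 18.3 TPM and MMP14, which activates it, at 208 ± 2.95 TPM above the rest. MMP7, MMP26 and MMP27 had no count.

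**Figure D2:**
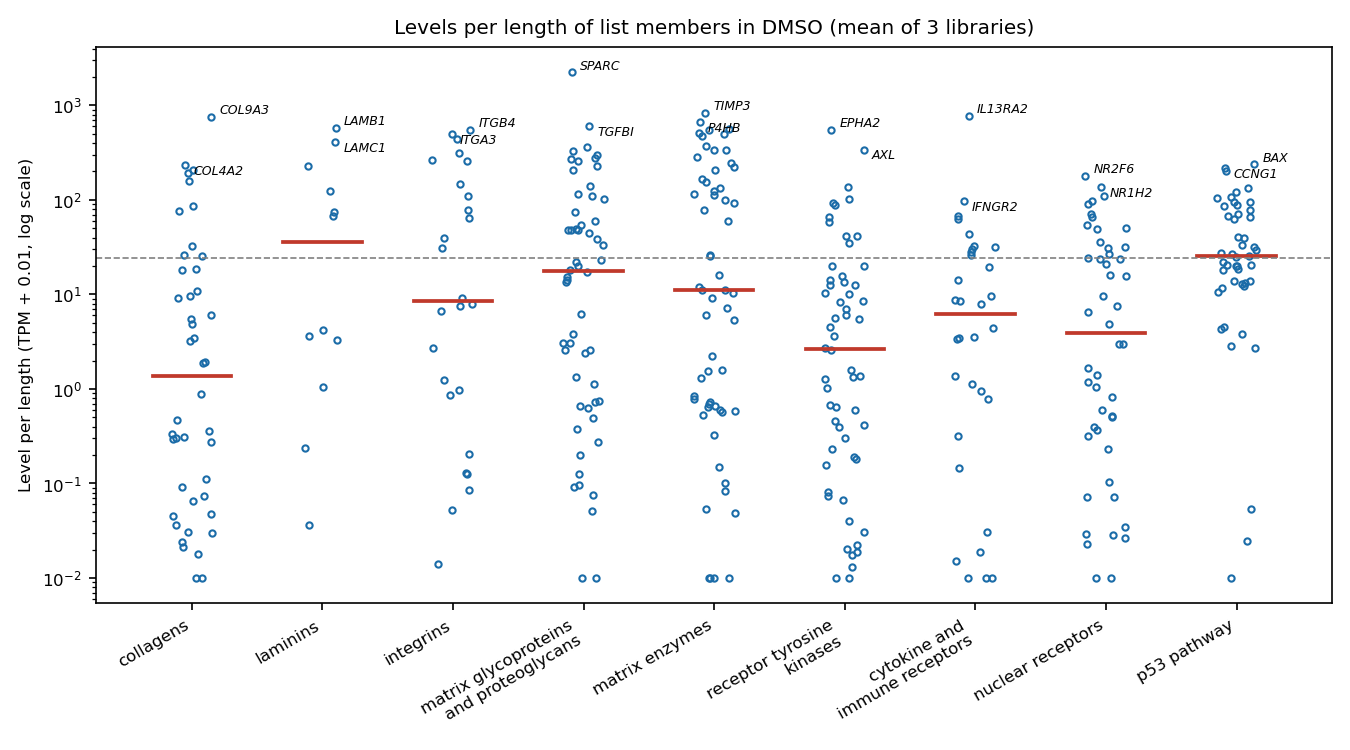
Mean level per length of each list member over the 3 DMSO libraries, in TPM + 0.01 on a log scale, with 1 point per gene, a red bar at the list's median and a dashed line at the median of all expressed symbols, 24.1 TPM. The laminin and p53 medians lie above the dashed line and the collagen median, 1.38 TPM, lies lowest of the 9 lists shown. The red bars include members that were not expressed, while the dashed line covers expressed symbols only.

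The p53 pathway was expressed at baseline in nearly its whole breadth. Of 47 members, 44 passed 1 CPM in each library and the median was 25.6 TPM. The negative regulators of the pathway were near the list's median or below it, MDM2 with 100.1, 101 and 106 CPM, or 25.6 ± 1.05 TPM, and MDM4 with 44.9, 43.3 and 44.2 CPM, or 13.7 ± 0.193 TPM. The highest members were BAX, a pore-forming protein of mitochondrial apoptosis, at 237 ± 8.39 TPM, the cyclin CCNG1 at 216 ± 5.63 TPM, the cyclin-dependent kinase inhibitor p21 (CDKN1A) at 201 ± 2.75 TPM and PHLDA3, which restrains AKT, at 135 ± 0.960 TPM. The stress gene GADD45B, named in the study but outside the list, was at 19.2 ± 0.562 TPM. SPATA18, a list member, had no count.

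CDKN2A, the gene of the cell cycle inhibitor p16 and of ARF, which holds MDM2 in check, was at the low end of the p53 list. It stood at 3.88, 3.44 and 3.92 CPM, or 3.79 ± 0.270 TPM. Its neighbors on chromosome 9 were chosen after their values were seen. CDKN2B (22002903 to 22009363), which codes for p15, had no count in any of the 9 libraries, and MTAP (21802543 to 21937651), an enzyme of methionine salvage, stood at 353, 366 and 363 CPM. The CDKN2A gene itself spans 21967753 to 21995301, between them, and the values of the 3 neighbors in this order were high, low and without a count in each DMSO library.

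Of 17 BCL2 family genes 15 were expressed, with MCL1, a survival member, highest at 447 ± 6.90 TPM and BCL2 itself at 2.19 ± 0.324 TPM. All 28 genes of the ERK pathway were expressed, with a median of 70.2 TPM, the highest after the cell cycle list. BRAF stood at 16.2, 17.2 and 15.7 CPM, or 3.63 ± 0.168 TPM, below NRAS at 82.0 ± 4.14 TPM and MAP2K2 at 225 ± 2.33 TPM. The targets and feedback genes of ERK were high, with cyclin D1 (CCND1) at 452 ± 7.17 TPM, IER3 at 419.8 ± 11.5 TPM, PHLDA1 at 401 ± 8.54 TPM and FOSL1 as above. Of 33 cell cycle genes 31 were expressed, with a median of 82.6 TPM, and after CCND1 came the replication clamp PCNA at 370.4 ± 4.12 TPM, CDK4 at 367 ± 8.65 TPM and CCNB1 at 282 ± 8.30 TPM.

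The targets of TP-472 were both expressed. BRD7, a subunit of the PBAF form of the SWI/SNF chromatin remodeler, stood at 87.7, 88.0 and 88.4 CPM, or 52.3 ± 0.815 TPM. BRD9, a subunit of the noncanonical form, stood at 38.6, 37.5 and 36.6 CPM, or 51.2 ± 0.750 TPM. Per length their means differed by little, and the SDs hold the spread between libraries but no error of the gene lengths. The CV of BRD7 was 0.425%. Of 28 SWI/SNF genes 26 were expressed, with the ATPase SMARCA4 at 141 ± 2.39 TPM, SMARCC1 at 127 ± 6.79 TPM and SMARCC2 at 119.7 ± 0.741 TPM highest and the alternative ATPase SMARCA2 at 23.0 ± 0.337 TPM.

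Several large families were silent. Of 398 olfactory receptor symbols, 330 (82.9%) had no count and 3 were expressed. No beta defensin, keratin-associated protein or late cornified envelope gene was expressed, and 37 of 38, 82 of 93 and 16 of 18 of them had no count. The gamma crystallins of the lens were also without an expressed member, at 4 of 6 without a count. Of 17 type I interferons 11 had no count, and IFNE, the interferon of reproductive epithelium, was the only one expressed, at 3.04, 3.58 and 4.42 CPM. Of 27 taste receptors 1 was expressed, TAS2R20, at 1.17, 1.03 and 1.32 CPM. The ribosomal proteins and the proteasome were at the other end, with 82 of 85 and 37 of 39 symbols expressed, and of 529 symbols starting with ZNF 446 were expressed.

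The 3 olfactory receptors that passed were OR51B5 at 12.2, 11.7 and 11.9 CPM, OR51B4 at 3.40, 3.25 and 3.07 CPM and OR2W3 at 1.91, 1.34 and 1.68 CPM. OR51B5 (5303444 to 5505652) and OR51B4 (5301014 to 5301946) lie on chromosome 11 within the annotated span of HBE1, the embryonic beta-like globin (5268345 to 5505652). HBE1 was the only one of 10 hemoglobin chains to be expressed, at 41.8, 44.4 and 47.4 CPM, or 148 ± 10.9 TPM, while the adult chain HBB was at 0.0134 ± 0.0232 CPM. The annotated exons of HBE1 and OR51B5 share 0 bases and those of HBE1 and HBG2 share 37 bases. The sources used here do not state if strand entered the counting, and reads of overlapping transcripts at this locus may not be told apart.

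Other families were split between silent and active members. Of 56 keratins 11 were expressed, and the highest were KRT18 at 1035 ± 13.8 TPM, a keratin of simple epithelia, the hair keratin KRT81 at 788 ± 18.2 TPM, KRT80 at 274 ± 7.31 TPM and KRT10 at 66.6 ± 4.36 TPM. KRT8, the partner of KRT18, stood at 66.4 ± 0.760 TPM, close to KRT10 and below KRT18. The cancer-testis genes, which are normally confined to germ cells, were active in part, with 9 of 26 MAGE genes and 9 of 33 GAGE, PAGE and XAGE genes expressed. MAGEA4 stood at 1035 ± 5.50 TPM, MAGEA3 at 223 ± 1.15 TPM, MAGEC2 at 176 ± 3.03 TPM and MAGEA6 at 164 ± 4.27 TPM. PAGE5 stood at 439.7 ± 17.2 TPM, and SSX2B was the only expressed gene of 11 SSX genes at 21.6 ± 2.19 TPM. Near-identical copies share reads in these families. XAGE1B and XAGE1E had the same values in every library, and MAGEA3 and MAGEA6, SSX2B and the GAGE symbols are uncertain for this reason.

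HOX genes, which record position along the body axis, were expressed for 30 of 39 symbols, with HOXB2 at 116 ± 3.76 TPM, HOXC10 at 86.3 ± 3.75 TPM, HOXB7 at 61.4 ± 0.657 TPM and HOXC13 at 41.9 ± 3.49 TPM highest. Of 53 clustered protocadherins 37 were expressed, and PCDHGC3 at 82.4 ± 1.97 TPM stood above PCDHB6 at 20.5 ± 0.715 TPM. Of these symbols 98.1% had values that were not whole numbers, and the alpha and gamma genes each share exons within their cluster. Of 45 chemokine ligands 9 were expressed, with CXCL8 ahead of CXCL1 at 383 ± 9.43 TPM and CCL2, the attractant of monocytes, at 82.9 ± 6.57 TPM. Of 19 Wnt ligands 6 were expressed, and WNT5A, a noncanonical ligand, stood at 140.4, 140.2 and 146 CPM, or 71.5 ± 2.19 TPM, against 5.89 ± 0.829 TPM for WNT3. Of 56 cytochrome P450 genes 13 were expressed, led by the sterol demethylase CYP51A1 at 53.1 ± 0.448 TPM.

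**Figure D3:**
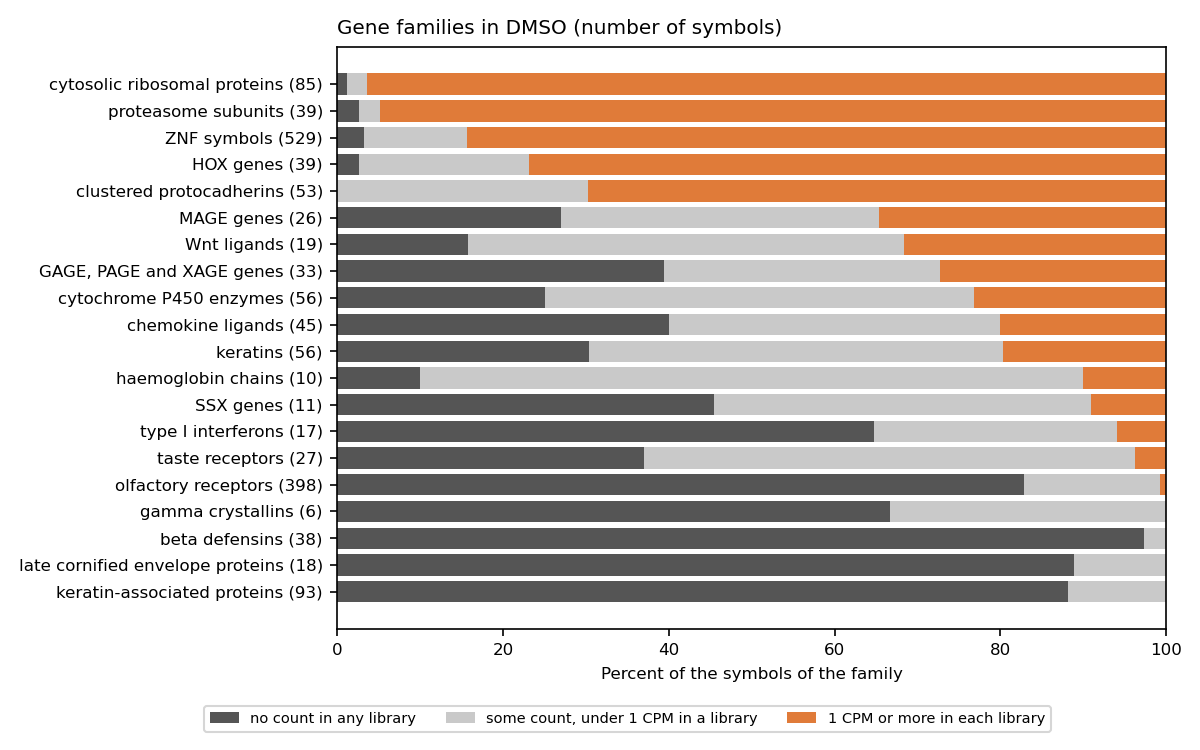
Share of the symbols of each family that had no count in any DMSO library (dark grey), some count but under 1 CPM in at least 1 library (light grey) or 1 CPM or more in each library (orange), in percent, with the number of symbols in brackets. Beta defensins are 97.4% without a count, and 96.5% of cytosolic ribosomal proteins are expressed.

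Markers of other cell types were low. Of 58 markers of keratinocytes, T cells, B cells, myeloid cells, endothelium, fibroblasts, erythroid cells, hepatocytes, muscle and neurons, 11 were expressed, 9 had no count and the median was 0.193 TPM. Their summed level was 116, 109.9 and 112 CPM in the 3 libraries, and KRT10 gave 48.3, 42.5 and 42.2 CPM of it. The defining markers KRT1, CD2, MS4A1, CD3E, APOA1 and TTR had no count, and ALB, HBB and PTPRC had mean levels of 0.0216, 0.0134 and 0.0280 CPM. The highest of the 11 were KRT10 at 66.6 ± 4.36 TPM, the presynaptic protein SNAP25 at 15.2 ± 0.488 TPM and SERPINA1 at 14.2 ± 1.11 TPM. KRT14 at 13.3 ± 0.756 TPM and lysozyme (LYZ) at 10.8 ± 0.692 TPM came next. Of 6 endothelial markers 3 were expressed, the highest TIE1 at 4.54 ± 0.145 TPM. Of 6 fibroblast markers 2 were expressed, the highest LUM at 2.56 ± 0.207 TPM. With the limit at 0.5 CPM, 17 of the 58 markers passed.

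Genes without a count had promoters poor in CpG. Over the 300 bases around the start of 17330 genes in RefSeq, the median number of CpG was 21, and it was 4 for the 2666 genes without a count, 7 under 0.1 CPM, 14 from 0.1 to 1 CPM, 22 from 1 to 10 CPM, 27 from 10 to 100 CPM and 28 from 100 to 1000 CPM. The olfactory receptors had a median of 1 CpG, the keratins and keratin-associated proteins 2, and the ribosomal proteins 23. TATAAA in the window from 45 to 15 bases before the start occurred in 3.39% of all promoters, 7.73% of those without a count, 44.1% of the keratins and 44.3% of the keratin-associated proteins. The members of a family share ancestry and often sequence, so these shares are descriptions.

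The 3 DMSO libraries were close to each other. Over the 9845 symbols with a mean of at least 10 CPM, the median CV was 3.30% (5th to 95th percentile 0.821% to 8.83%), and 298 symbols (3.03%) had a CV over 10%. In 15 symbols the highest library was at least 1.5 times the lowest. The common biological coefficient of variation from edgeR was 4.13%. In the TP-472 groups the same median CV was 4.67% at 5 µM and 14.6% at 10 µM. Without 10 µM replicate 1 it was 4.57% over the remaining pair, which cannot be set against values over 3 libraries. The DMSO median also fell, to 2.63% to 2.78%, with each library left out. Chi-square per degree of freedom was 11.6 between 10 µM replicates 2 and 3 and 7.61 to 9.53 between pairs at 5 µM. Between pairs of DMSO libraries chi-square per degree of freedom was 3.90 to 4.91 and 4 to 10 symbols differed at least 1.5-fold, so no DMSO library repeats another. Symbols from 10 to 100 CPM had a median CV of 3.76% against 2.54% expected from counting alone, and the 71 symbols at 1000 CPM or more had 1.78% against 0.379%. From 0.1 to 1 CPM the median CV was 33.7% against 25.8%.

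The median CV was highest for the shortest symbols and differed little between the other classes of length. Each library's log2 deviation from the other 2 was correlated with log2 length, at -0.27, 0.18 and 0.11 for DMSO replicates 1, 2 and 3. In the 4 classes of summed exon length from shortest to longest the median CV was 3.72%, 3.19%, 3.09% and 3.25%, and DMSO replicate 1 read the shortest class 0.03 higher and the longest class 0.02 lower (median log2) than the other libraries. Values that were not whole numbers, which arise where reads map to several genes, belonged to 20.9% of the symbols at 10 CPM or more but to 34 of the 50 with the largest CV. The largest was that of SCNM1, a splicing factor, with 23.1, 26.1 and 7.09 CPM and a CV of 54.4%. The readthrough symbol TNFAIP8L2-SCNM1, which contains its exons, had 15.4, 12.5 and 28.2 CPM, and the sum of the pair had a CV of 5.10%. The next symbols were INO80B-WBP1 with a CV of 37.0%, TVP23C-CDRT4 with 33.7%, AP3S2 with 30.8%, GALNT4 with 30.3%, SMN2 with 28.1%, RN7SL1 with 26.7%, LOC727751 with 25.6% and RN7SL2 with 25.4%. Several of these symbols share exons with a readthrough symbol or have a near-identical copy.

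SMN1 and SMN2, near-identical copies of the survival motor neuron gene, showed this split most plainly. SMN2 was assigned 28.9, 51.9 and 42.6 CPM in DMSO and SMN1 64.6, 44.5 and 52.7 CPM, the values of 1 copy high where the other's were low. The sum was 93.5, 96.5 and 95.3 CPM, with a CV of 1.57%. At 5 µM SMN2 was assigned 62.9, 6.93 and 29.4 CPM with a sum of 99.3 to 102.3 CPM, and at 10 µM 0 in each library with a sum of 113 to 122 CPM. The levels of SMN1 and SMN2 taken alone are therefore uncertain in all 9 libraries.

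**Figure D4:**
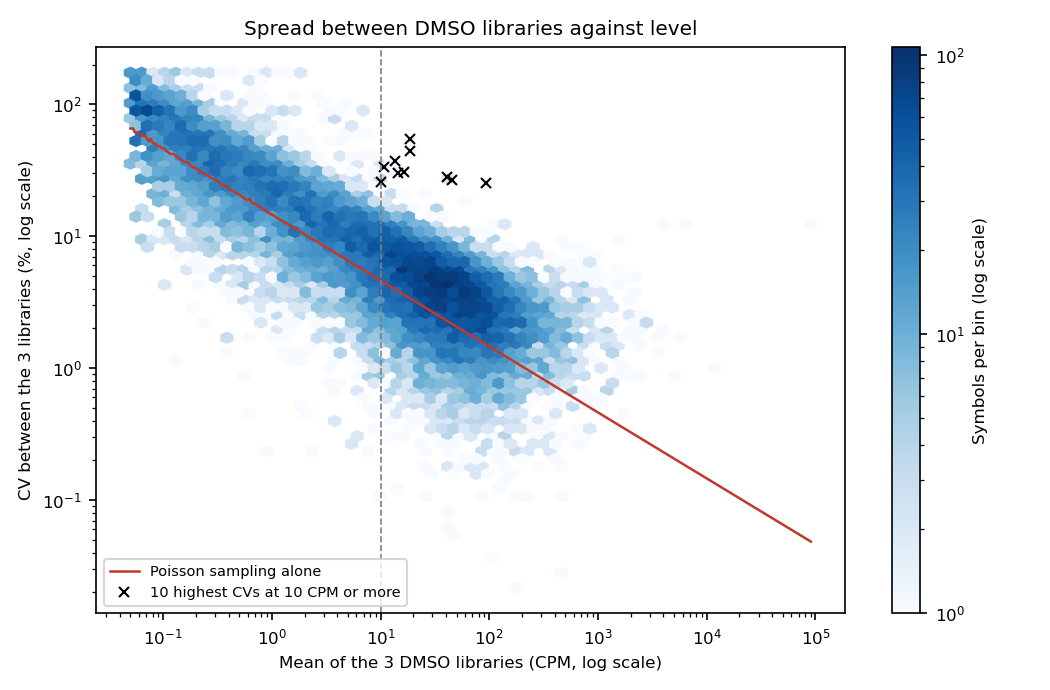
CV between the 3 DMSO libraries against the mean level in CPM for each symbol, both on log scales, shaded by the number of symbols per bin, with the CV expected from counting alone as a red line and the 10 largest CVs at 10 CPM or more as crosses. The crosses lie at 25.4% to 54.4%, and the cloud leaves the red line above 10 CPM (dashed line).

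The DMSO libraries are the reference for both doses, so the values at 5 µM and 10 µM share them and are given side by side. A gene was called at an adjusted p under 0.05 and a change of at least 1.5-fold, and of 16417 genes tested 2.14% were higher and 2.72% lower at 5 µM, and 8.57% were higher and 10.5% lower at 10 µM. The median log2 change over all genes was 0.01 at either dose. Of the 13256 symbols expressed in DMSO, 12909 reached 1 CPM in every library at 5 µM and 12690 at 10 µM. This set was chosen by its level in DMSO, so it could only lose members. Another 6736 symbols had some count in DMSO but were under 1 CPM in a library. Of them, 206 reached 1 CPM in every library at 5 µM and 281 at 10 µM. Without DMSO replicate 1, 2 or 3 the genes called at 5 µM numbered 527, 480 and 488 in place of 799, and 1241 without 10 µM replicate 1, a library of the other dose in the same fit. Of the 6483 symbols without a count in DMSO, 1 reached 1 CPM in every library at 5 µM and 0 at 10 µM. The 1 symbol was MINOS1-NBL1, a readthrough symbol whose values were not whole numbers, at 2.76, 2.85 and 2.48 CPM.

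Differences from DMSO are log2 values from the edgeR fit ± SE. Counts of called genes stand beside shares over all genes of 2.14% higher and 2.72% lower at 5 µM. At 10 µM these shares were 8.57% and 10.5%. SOX10 had a difference of -0.013 ± 0.068 at 5 µM and -0.091 ± 0.068 at 10 µM, and MITF of -0.10 ± 0.14 and -0.13 ± 0.14, and neither gene was called at either dose. The MITF value at 10 µM turned on single libraries, at -0.00046 without 10 µM replicate 1 and -0.32 (adjusted p = 0.0659) without 10 µM replicate 2. Of 28 melanocyte genes tested, 0 rose and 2 fell at 5 µM, MLPH among them, and 1 rose and 7 fell at 10 µM. At 10 µM TSPAN10 was the gene that rose, by 0.97 ± 0.25, and ERBB3 fell from 215 ± 2.99 CPM to 107 ± 3.76 CPM. Single libraries decided the counts at 5 µM, with 0 genes lower without DMSO replicate 2 or 3 or 5 µM replicate 1 and 1 lower without DMSO replicate 1, 5 µM replicate 2 or 3 or 10 µM replicate 3, and with 1 gene higher without 10 µM replicate 1 or 3. The rise at 10 µM was of 0 genes without DMSO replicate 2, 2 without 10 µM replicate 1 or 2 and 3 without 10 µM replicate 3. Of 40 neural crest and dedifferentiated genes, 3 rose and 9 fell at 5 µM, and 8 rose and 17 fell at 10 µM, with medians of -0.30 and -0.56. NGFR fell at both doses, by 1.04 ± 0.12 and 0.81 ± 0.11 on the log2 scale, and NES by 0.73 ± 0.083 and 1.15 ± 0.084. WNT5A fell at 10 µM by 1.05 ± 0.12, and AXL, though its adjusted p was 0.0296 and 0.0255, changed by less than 1.5-fold (-0.31 ± 0.075 and -0.25 ± 0.075).

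Most of the p53 genes tested rose at both doses. Of 44 genes tested, 31 rose and 0 fell at 5 µM, and 33 rose and 2 fell at 10 µM, with medians of 0.89 and 1.16. Among all genes tested 2.14% were higher and 2.72% lower at 5 µM, and 8.57% and 10.5% at 10 µM. The 19 repair and metabolism targets tested had 18 higher at each dose. MDM2 rose from 102 ± 3.21 CPM to 338 ± 6.01 CPM and 669 ± 63.9 CPM, and CDKN1A from 158 ± 3.94 CPM to 549 ± 11.9 CPM and 775 ± 109 CPM. The study named BAX, GADD45B, CDKN1A and MDM2 on these samples, so their rise is not independent evidence. At most 1 p53 gene fell at 5 µM and 1 to 2 fell at 10 µM when a library was left out, 1 at 5 µM without 10 µM replicate 1 or 2 and 1 at 10 µM without DMSO replicate 2.

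Members of each matrix list were called lower at both doses, though among the laminins at 5 µM this was a single gene. The shares called over all genes tested were 2.14% higher and 2.72% lower at 5 µM. At 10 µM they were 8.57% and 10.5%. Of 32 collagens tested, 2 rose and 10 fell at 5 µM and 1 rose and 13 fell at 10 µM. COL4A1, COL4A2 and COL9A3 fell at 10 µM by 2.17 ± 0.16, 1.95 ± 0.092 and 1.53 ± 0.13 on the log2 scale, and COL6A1 by 1.34 ± 0.067. Of 11 laminins 0 rose and 1 fell at 5 µM and 1 rose and 5 fell at 10 µM, of 24 integrins 1 rose and 5 fell and then 3 rose and 13 fell, and of 50 matrix glycoproteins and proteoglycans 0 rose and 12 fell and then 3 rose and 22 fell. Of 51 matrix enzymes 2 rose and 8 fell, and then 5 rose and 20 fell. LAMB1 fell from 1136 ± 17.9 CPM to 445 ± 93.1 CPM at 10 µM, while its call at 5 µM (-0.62 ± 0.13) was lost when any DMSO or 5 µM library was left out (adjusted p = 0.0554 to 0.0685), and so was the 1 laminin called lower there. SPARC fell at 10 µM, from 2598 ± 47.3 CPM to 1270.2 ± 56.8 CPM, and was not called at 5 µM, at 2315 ± 25.6 CPM. CTSB fell at 10 µM by 0.74 ± 0.094, and its change at 5 µM, -0.52 ± 0.094, was under 1.5-fold. CTSS fell at 10 µM by 1.14 ± 0.19, and its call at 5 µM was lost without DMSO replicate 1, 2 or 3, 5 µM replicate 2 or 3 or 10 µM replicate 2 or 3. Without DMSO replicate 1, 2 or 3 or 5 µM replicate 2 or 3, 1 collagen rose at 5 µM, and without 10 µM replicate 1, 2 rose at 10 µM. Laminins lower at 10 µM were 3 without DMSO replicate 1 or 3 or 10 µM replicate 1. Integrins higher were 3 at 5 µM without 10 µM replicate 1 or in a fit of DMSO and 5 µM alone, and at 10 µM 1 in a fit of DMSO and 10 µM alone, 0 without DMSO replicate 2 or 3 and 1 without 5 µM replicate 2 or 10 µM replicate 1 or 3. Matrix enzymes higher were 1 at 5 µM without DMSO replicate 2 or 3 and 3 at 10 µM without 10 µM replicate 1, and 1 glycoprotein or proteoglycan rose at 5 µM without 10 µM replicate 1.

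Of 32 cell cycle genes 2 rose and 8 fell at 5 µM and 1 rose and 20 fell at 10 µM, counts that stayed within 1.5 times when any library was left out. Of 28 ERK pathway genes 2 rose and 2 fell, and then 3 rose and 5 fell. The members that fell included the feedback inhibitors SPRY1 and SPRY4 at both doses. BRAF was not called, at -0.33 ± 0.13 and -0.46 ± 0.13. Of 27 SWI/SNF genes 0 were called at 5 µM, and 0 rose and 3 fell at 10 µM. Over all genes tested, 8.57% were higher and 10.5% lower at 10 µM, so the 3 are near that share. BRD7 (-0.075 ± 0.086 and -0.19 ± 0.086) and BRD9 (0.15 ± 0.11 and 0.27 ± 0.11) were not called at either dose, and a p that misses the limit does not show that they did not change. The 3 genes were ARID2, ARID1B and SMARCC2. At 5 µM 0 SWI/SNF genes were higher and 3 lower at an unadjusted p under 0.05 in edgeR, and DESeq2 called 0, and at 10 µM 4 were higher at an unadjusted p and DESeq2 called 2 higher. SWI/SNF genes lower at 10 µM were 1 without DMSO replicate 3 or 10 µM replicate 1, 6 without 10 µM replicate 2 and 5 without 10 µM replicate 3, and 2 and 1 rose without 5 µM replicate 2 and 10 µM replicate 3. Of 48 receptor tyrosine kinases tested 1 rose and 5 fell, and then 2 rose and 16 fell. EPHA2, the highest of them in DMSO, was not called, at 0.16 ± 0.063 at 10 µM. The kinases that rose were 0 at 5 µM without any 1 DMSO library or 5 µM replicate 2 or 3, and 1 at 10 µM without any 1 DMSO library or 10 µM replicate 3.

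Of 41 nuclear receptors tested 2 rose and 2 fell at 5 µM and 3 rose and 7 fell at 10 µM. Of 25 cytokine and immune receptors 0 were called at 5 µM and 3 fell at 10 µM. Of 13 TGF-beta superfamily receptors 0 and then 2 fell. Of 9 TNF receptor family members 3 rose and 1 fell and then 3 rose and 3 fell. Of 16 BCL2 family genes 2 rose and then 4 rose and 2 fell. Over all genes tested, 2.14% were higher and 2.72% lower at 5 µM, and 8.57% and 10.5% at 10 µM. The nuclear receptors higher at 5 µM were 1 without any 1 DMSO or 5 µM library and 4 without 10 µM replicate 1, and 7 were higher at 10 µM without 10 µM replicate 1. Without DMSO replicate 1, 1 cytokine receptor fell at 5 µM, and without 10 µM replicate 2, 5 fell at 10 µM. Without 10 µM replicate 3, 4 TGF-beta superfamily receptors fell. Among BCL2 genes 1 fell at 5 µM without 10 µM replicate 1 or 3, and 1 at 10 µM without DMSO replicate 1 or 3 or 10 µM replicate 2. Of 33 markers of other cell types tested, 2 rose and 2 fell at 5 µM and 6 rose and 4 fell at 10 µM. Those higher at 5 µM were 1 without any 1 DMSO library or 5 µM replicate 3 and 6 without 10 µM replicate 1, and 1 was lower without DMSO replicate 2. KDR, an endothelial receptor, was at 1.92 ± 0.0703 CPM in DMSO and 10.9 ± 3.29 CPM at 10 µM, and SNAP25, a neuronal marker, fell by 1.75 ± 0.15. The part of these markers in the other changes was not tested. Where edgeR called 0, the genes at an unadjusted p under 0.05 at 5 µM were 1 higher and 1 lower for the cytokine receptors, 0 and 1 for the TGF-beta superfamily, 3 higher for the melanocyte genes, 3 lower for the p53 genes, 2 lower for the BCL2 family, 1 higher for the laminins and 5 higher for the glycoproteins and proteoglycans. At 10 µM they were 3 higher for the cytokine receptors and 1 higher for the TGF-beta superfamily. DESeq2 called 0 of these for both receptor lists and for the laminins, and 1 each for the melanocyte, p53, BCL2 and glycoprotein lists.

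**Figure D5:**
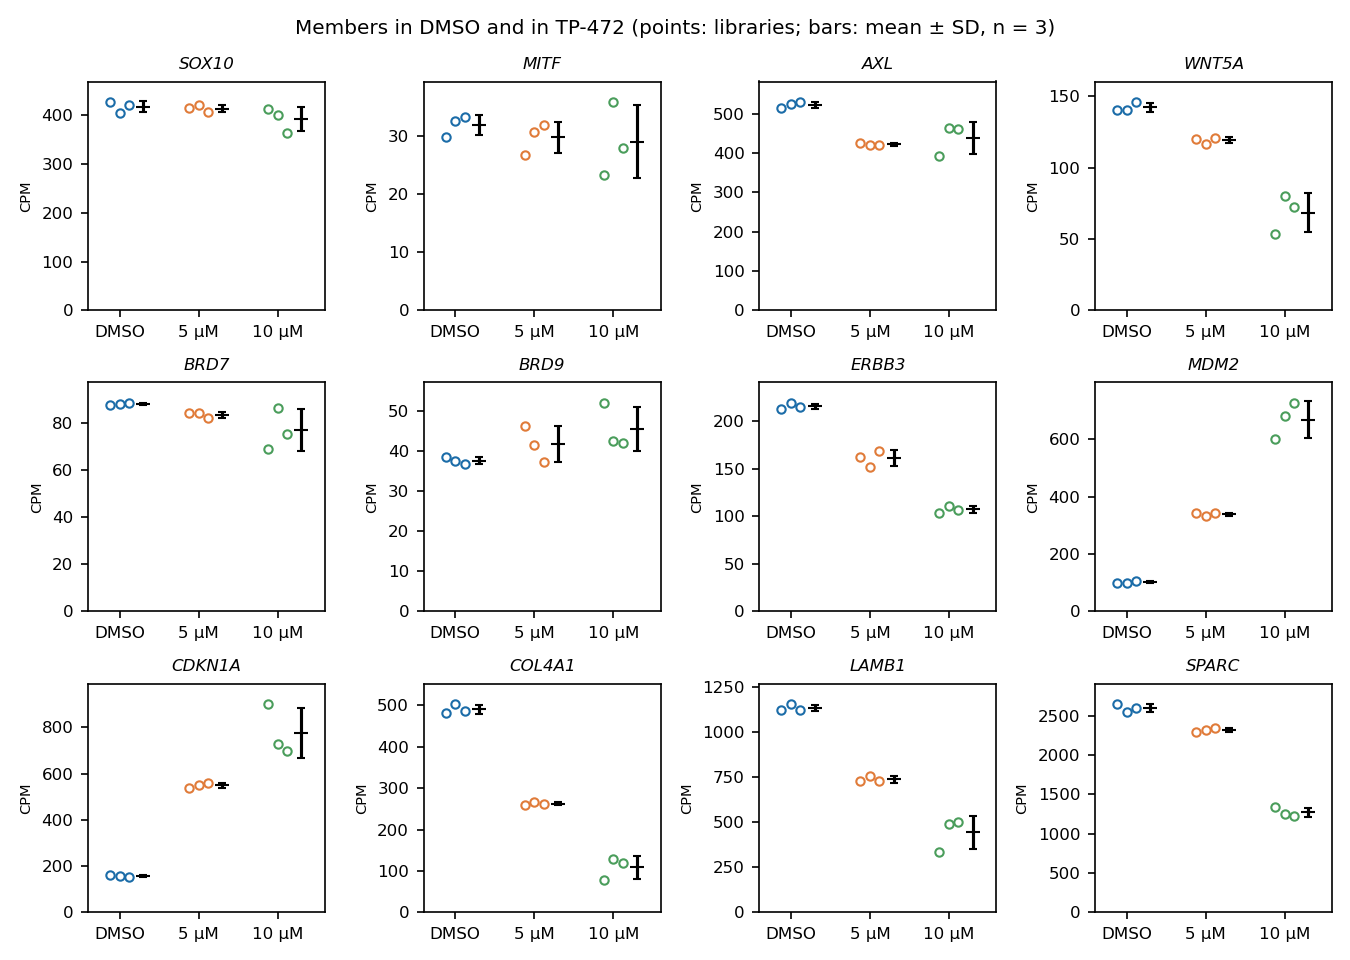
Level in CPM of 12 genes in the 3 libraries each of DMSO (blue), 5 µM TP-472 (orange) and 10 µM TP-472 (green), with 1 point per library and the mean ± SD as a black bar beside each group. The means of MDM2 and CDKN1A are higher and those of COL4A1 and LAMB1 lower at each dose. The call of LAMB1 at 5 µM was lost when any DMSO or 5 µM library was left out. SOX10, MITF, BRD7 and BRD9 were not called.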

How the data were processed

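RNA was sequenced from A375 cells kept for 24 h in DMSO or in TP-472 at doses of 5 or 10 µM, with 3 libraries a group. The deposited values are expected counts per gene symbol, made by the authors with RSEM 1.2.15, and the submitters' processing notes also name Bowtie2 2.1.0 and hg38. The sources used here name neither the annotation nor the use of strand in counting. RSEM shares a read among the genes it maps to, so copies can trade counts.

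Expected counts were rounded to whole numbers and scaled with TMM factors in edgeR 4.0.16 (R 4.3.3). Levels in DMSO are described without a test. Both doses were compared with DMSO by edgeR's quasi-likelihood test over 16417 genes in 1 fit of the 9 libraries, with Benjamini-Hochberg adjustment. A gene was called at an adjusted p under 0.05 and 1.5-fold. DESeq2 1.42.0, other filters and scalings, a replicate block and leaving out each library were alternatives. The fits were tested on simulated data. Tables and figures used Python 3.11.15, pandas 2.3.3 and numpy 2.4.6. TPM were computed from CPM and GENCODE release 29 exon lengths (24593 symbols), without ribosomal RNA genes, which have no length there. Promoters came from RefSeq GRCh38.p14 (17331 symbols matched).

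The members and gene lists were chosen with earlier results of these data known. Genes were named by rule: the 4 highest per length of each list, subgroup or family, all melanocyte genes, the targets of TP-472 and regulators of the p53 pathway, genes named in the study, the 10 highest levels and the 10 largest CVs. CDKN2B, MTAP, MINOS1-NBL1, SMN1, readthrough partners and the other genes named for a call or a low level were chosen after their values were seen. Some list members are not reported here by name, in the text or the figures, and stay in the counts.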

Additional observations from a re-analysis of the deposited data

How the results depend on the processing

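The number of expressed symbols in DMSO, 13256, was 14070 at 0.5 CPM, 12359 at 2 CPM, 13087 at 1 TPM and 13343 to 13368 with each DMSO library left out, and the symbols without a count, 6483, were 6427 without rounding, 8508 when up to 3 counts were allowed and 6942 to 7088 with each DMSO library left out. The median CV of 3.30% became 3.55% with library totals only, 4.22% from 1 CPM and 2.13% from 100 CPM. With each DMSO library left out it was 2.63% to 2.78%, over pairs of libraries and so not comparable with 3.30%. The common biological coefficient of variation of 4.13% became 4.45% with library totals only, 19.0% over all 9 libraries and 3.90% to 4.48% with each DMSO library left out. The genes called at 5 µM, 799, were 1320 (591 higher, 729 lower) in a fit of DMSO and 5 µM alone and 480 to 1241 (197 to 575 higher, 283 to 666 lower) with each of the 9 libraries left out, highest without 10 µM replicate 1. Leaving out the libraries of the other dose was chosen after seeing the data. At 10 µM, 3137 genes were called, and 2523 to 3443 (1051 to 1564 higher, 1472 to 1879 lower) with each of the 9 libraries left out. Replicates with the same number did not deviate together (correlations of -0.05 to 0.03), so they were not paired, and the replicate block gave 687 calls (288 higher, 399 lower) and 3005 (1269 higher, 1736 lower). With each of the 9 libraries left out, the log2 difference of SOX10 at 5 µM ranged from -0.035 to 0.0015 (above 0 without DMSO replicate 1 or 5 µM replicate 3) and that of CDKN2A at 10 µM from -0.11 to 0.18 (-0.03 without DMSO replicate 2 and lowest without 10 µM replicate 1), none of them called. CDKN2A at 5 µM (-0.62) was called in the fit of DMSO and 5 µM alone, with DESeq2 and without 10 µM replicate 1 or 2, and not otherwise. With the replicate block CTSS at 5 µM was not called (adjusted p = 0.0841), and, among the list counts that moved by over 1.5 times, the genes higher at 5 µM were 1 nuclear receptor and 1 collagen, those higher at 10 µM 1 receptor tyrosine kinase, 1 integrin and 1 SWI/SNF gene, and those lower at 10 µM 4 TGF-beta superfamily receptors. Of such counts the fit of DMSO and 1 dose alone gave, at 5 µM, 1 melanocyte gene, 2 receptor tyrosine kinases, 4 nuclear receptors, 3 integrins, 1 glycoprotein or proteoglycan and 6 markers of other cell types higher and 1 p53 gene, 1 BCL2 gene and 4 markers of other cell types lower. At 10 µM it gave 1 integrin and 2 SWI/SNF genes higher and 3 laminins lower. DESeq2 gave 2 integrins and 5 markers of other cell types higher at 5 µM, and with RLE factors 1 SWI/SNF gene was higher at 10 µM. The cause was not tested. Counts limit levels under 0.1 CPM, where the median CV was 127%.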

Other observations

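The E-box CACGTG was found in the promoters of 19 of 25 GAGE, PAGE and XAGE genes in the table (76.0%) and in 8.67% of all promoters, and the copies in this family are near-identical in sequence, so they are not independent. TCATGTG was found in 7 of 20 HOX promoters, against 2.40% of all promoters. At the other end of the spread, CENPB, a centromere protein, had the lowest CV of the genes at 100 CPM or more, 0.0217%, and it was chosen after its value was seen. SERPINE2, a secreted protease inhibitor chosen in the same way, was the 12th symbol per length in DMSO, at 4846 ± 68.8 TPM.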
